A study of Mus musculus and Rattus norvegicus with 37 samples.

Results

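The 10 genes described here set the fate of pyruvate and lactate in the liver, and they were followed through 4 tables of liver RNA-seq values from 37 animals. They were found by their names and are the kinases Pdk1, Pdk2, Pdk3 and Pdk4, the phosphatases Pdp1 and Pdp2, the E1 subunits Pdha1 and Pdhb, and the lactate dehydrogenases Ldha and Ldhd. All 10 were found in each mouse table, among 47929 genes named once, and in each rat table, among 28026. WT/Floxed mice (C57BL/6J) received saline (n = 5; 3 WT and 2 floxed) or LNA29 (n = 8; 4 WT and 4 floxed). LNA29 stands for antisense inhibitors of miR-29a and miR-29b/c built from locked nucleic acids, each injected once at 20 mg/kg, and livers were taken on day 7. Mice labelled L-Sirt1 KO, a liver-specific knockout of Sirt1 whose Cre driver is not given in the sources used here, received saline or LNA29 (n = 4 each). All mice were fed females. The WT mice were 9 to 11 weeks old and the floxed and knockout mice 15 to 20 weeks, so that age cannot be told apart from the difference between WT mice and the other 2 genotypes. The rats were fed males: ZFR, obese fa/fa Zucker rats with a mutated leptin receptor, and lean ZLR at 5.5 months (n = 4 each), and ZFR at 3 months that received BT2 or its DMSO vehicle (n = 4 each). BT2, an inhibitor of the branched-chain α-keto acid dehydrogenase kinase, was injected daily at 20 mg/kg for 1 week.

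Pyruvate made by glycolysis or from lactate enters mitochondria, where the pyruvate dehydrogenase complex turns it into acetyl-CoA. The kinases of the complex phosphorylate its E1 alpha subunit and switch it off, and the phosphatases remove the phosphate and switch it on. In liver, Pdk4 is known as a fasting gene under the control of PPARα and FoxO1, so that pyruvate is spared for glucose synthesis when fat is burned. Ldha makes the muscle-type subunit of L-lactate dehydrogenase, which interconverts L-lactate and pyruvate. Ldhd is a mitochondrial enzyme that oxidizes D-lactate, an end product of methylglyoxal detoxification and of gut bacteria.

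The LNA29 comparison asks how the liver transcriptome responds to loss of miR-29, so the microRNAs and their possible sites in these genes are shown first. The mature mouse sequences (RefSeq) have the same seed, bases 2 to 8, which stands in capitals:
miR-29a-3p: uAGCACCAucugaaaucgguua
miR-29b-3p: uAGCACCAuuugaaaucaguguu
miR-29c-3p: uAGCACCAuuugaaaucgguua
The match to this seed, TGGTGCT, was searched on the sense strand of the annotated mouse 3′ UTRs (GRCm38, GENCODE vM21). It was present in 2901 of 21005 genes with a 3′ UTR (13.8%), and its 8-base form TGGTGCTA, which contains it, in 628 (2.99%). Of the 10 genes only Pdp2 had the 7-base match, and it had 2. The matches are in capitals within their flanks:
Pdp2, chr8:104596884-104596890, plus strand: ggcagtgtTGGTGCTtgccttta
Pdp2, chr8:104598158-104598164, plus strand: gtatgtctTGGTGCTtaaagtga
Pdk4, chr6:5484018-5484023, minus strand, 6-base match: agagctaaGGTGCTcccggttg
They lie at bases 1765 and 3039 of the 3907-base 3′ UTR of Pdp2 and at base 1426 of the 2098-base 3′ UTR of Pdk4. The 6-base match GGTGCT was present in 6181 genes (29.4%), and neither form was found in the 3′ UTRs of the other 8 genes. A match is a description of the letters and not a tested site.

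The values are normalized counts, that is, estimated reads per gene divided by a factor for each library, and each table was scaled on its own. Mouse libraries held an estimated 42.6 to 78 M reads, whereas rat libraries held 0.188 to 58.5 M and 6 of the 16 were under 1 M, where 1 read was worth up to 10.5 normalized counts. Hepatocyte markers dominated in each group, with Alb at a mean of 4889900 in saline-treated WT/Floxed mice and of 201601 in ZLR. Sirt1 in the L-Sirt1 KO livers was at 586 ± 30.6 (saline) and 562 ± 26.0 (LNA29; SD, n = 4 each), within 1 SD of the 591 ± 81.2 (n = 5) of saline-treated WT/Floxed mice. The 2 mouse tables were scaled separately, and a count over the whole gene does not check a deletion of some exons. Some libraries stood apart by genes that move with the time of day or by another tissue. Dbp, a clock output gene, was 7449 in saline-treated KO replicate 3 against 146 to 480 in the other 3, and 1200 in saline-treated WT/Floxed replicate 5 against 47.8 to 335. Other clock genes did not single out that WT/Floxed library. In its group Arntl was lowest and Per2 highest in replicate 1 (956 and 295), against 1190 and 233 in replicate 5. The 6 pancreatic acinar markers summed to 1032 and 464 in saline-treated WT/Floxed replicates 4 and 3, to 210 in LNA29 replicate 4 and to at most 67.3 in the other 10 WT/Floxed livers, led by Ctrb1. The 6 skeletal muscle markers summed to 2596 in LNA29-treated KO replicate 1 against 27.3 to 47.6 in the other 7 KO livers, led by Acta1, and to 369 in WT/Floxed LNA29 replicate 3 against 23.1 to 76.5 in the rest. The 6 fat cell markers, led by Cfd, summed to 1536 in saline-treated KO replicate 4 against 28 to 73.3 in the other 3, and to 463 in LNA29-treated KO replicate 1 against 34 to 161. The 4 skeletal muscle markers found in rats summed to 391 in ZFR replicate 2, 208 in ZLR replicate 1 and 393 in BT2 replicate 3.

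Levels between genes were compared in mice per kb of the longest annotated coding transcript, and whether liver uses these forms was not tested. In saline-treated WT/Floxed livers Ldha led with 19727 ± 2399 normalized counts per kb (SD, n = 5). Pdhb (4122 ± 508) and Ldhd (3959 ± 338) came next and differed by less than their spread, ahead of Pdha1 (2604 ± 262) and Pdk2 (2251 ± 376), whose ranges of 1 SD overlap. Pdk1 stood at 1324 ± 403 and Pdk4 at 553 ± 287, and Pdp2, the phosphatase known for its insulin sensitivity, at 207 ± 49.9. Pdp1 (23.9 ± 5.74) and Pdk3 (14.3 ± 7.29) were scarce. Pdp2 made up 89.1% ± 4.39 of the phosphatase counts per kb, and Pdk2 55.3% ± 5.58 of the kinase counts per kb. Fewer cells of a type and less RNA per cell cannot be told apart in whole liver.

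In WT/Floxed mice Ldhd, which acts on D-lactate, fell with LNA29 and Ldha, which acts on L-lactate, rose, while none of the kinases or phosphatases passed the criteria (limma p under 0.05, adjusted p under 0.2, mean above 50 and fold above 1.2). These 2 of 10 genes stand beside 688 of 15811 tested genes (4.35%) past the criteria, 383 of them higher and 305 lower. The median log2 fold change over all tested genes was 0.00169.

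Ldhd (chr8:111623785-111630374, minus strand) had normalized counts of 8971, 9631 and 9882 in the saline-treated WT mice and of 8440 and 8065 in the saline-treated floxed mice. With LNA29 its lowest, median and highest values were 5873, 6157 and 7006. All 8 LNA29-treated livers were below all 5 saline-treated ones, a separation seen for 239 of the 15811 genes (1.51%). Ldhd fell to 0.695 times its saline level (95% CI 0.632 to 0.765; limma adjusted p = 0.000861), and the exact permutation p of 0.00155 is the smallest that 1287 splits allow. The fall was seen within each background. Its log2 fold change was -0.57 in WT mice alone (limma adjusted p = 0.0571) and -0.43 in floxed mice alone (adjusted p = 0.105). Znrf1 overlaps 2246 of the 5328 exon bases of Ldhd on the opposite strand, so the assignment of reads in that stretch is uncertain. Of the 100-base windows of the 2273-base longest coding transcript of Ldhd, however, 0% occur in transcripts of other genes on either strand. The log2 fold change of Znrf1 was 0.04 (limma adjusted p = 0.899).

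Ldha (chr7:46841475-46855627, plus strand) had counts of 37805, 29838, 35511, 34250 and 41614 in saline-treated replicates 1 to 5. With LNA29 the lowest, median and highest were 36437, 48678 and 56505, and 6 of the 8 livers were above all saline-treated ones. Ldha rose 1.3-fold (95% CI 1.11 to 1.54; limma adjusted p = 0.116; exact permutation p = 0.0109). The call was lost without LNA29 replicates 6 or 8 or saline replicates 2 or 4, with limma adjusted p between 0.214 and 0.244. It was also lost in WT mice alone (log2 fold change 0.31, limma adjusted p = 0.605), in floxed mice alone (0.47, adjusted p = 0.205) and without the minimum mean (0.38, adjusted p = 0.211). Ldhb, the heart-type subunit, was scarce at 146 ± 19.5 (saline, n = 5) and 128 ± 15.8 (LNA29, n = 8) and did not pass (limma adjusted p = 0.573).

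Among the E1 subunits, Pdha1 (chrX:160122209-160138413, minus strand), the subunit that the kinases phosphorylate, had counts of 8296, 7242 and 7915 in the saline-treated WT mice and of 7284 and 6337 in the floxed mice. With LNA29 its lowest, median and highest counts were 5614, 6280 and 6909, and 6 of the 8 livers were below all saline-treated ones. Its level was 0.838 times that of saline (log2 fold change -0.26, SE 0.0716; limma adjusted p = 0.108; exact permutation p = 0.00466), which is short of the fold criterion. Without saline replicate 5 or LNA29 replicate 1 it was past the criteria (-0.31, limma adjusted p = 0.0471, and -0.28, adjusted p = 0.0619). Pdhb (chr14:8165996-8173025, minus strand), the E1 beta subunit, was at 6236 ± 768 with saline and 6273 ± 774 with LNA29, with a 95% CI of its fold change from 0.868 to 1.16. Of all 100-base windows of the longest coding transcript of Pdha1, 12% also lie in Map3k15, which overlaps it on the opposite strand. For Pdhb 10.5% of such windows also occur in Gm6123. The assignment of reads in these shared stretches of the 2 genes is uncertain. Map3k15 had a log2 fold change of 0.24 (limma adjusted p = 0.703).

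The kinases varied widely between mice of 1 group. Pdk1 (chr2:71873224-71903858, plus strand), a kinase known to respond to hypoxia, had counts of 7961, 9212 and 7797 in the saline-treated WT mice and of 5108 and 4252 in the floxed mice. With LNA29 it ranged from 3589 to 7505 with a median of 4589, and 2 of the 8 livers were below all saline-treated ones. Its log2 fold change of -0.44 (SE 0.206) did not pass (limma adjusted p = 0.370; exact permutation p = 0.0901). The means were lower in floxed than in WT mice under both treatments, 4680 against 8323 with saline and 4109 against 5869 with LNA29, and with the background as a covariate Pdk1 passed (-0.38, limma adjusted p = 0.145). It also passed without saline replicate 5 (-0.60, limma adjusted p = 0.197), a floxed mouse and the library with high Dbp. Pdk2 (chr11:95026258-95041354, minus strand) was the most abundant kinase per kb. Before division by length it was at 5055 ± 845 with saline, below the 6866 ± 2091 of Pdk1 (SD, n = 5). Its log2 fold change was -0.28 (SE 0.139; limma adjusted p = 0.418), and 4 of the 8 LNA29-treated livers were below all saline-treated ones. The means of Pdk2 too were lower in floxed than in WT mice, 4182 against 5637 with saline and 3682 against 4699 with LNA29. Among the alternatives run Pdk2 passed when LNA29 replicate 1 was left out (-0.36, limma adjusted p = 0.135) and when libraries were weighted by quality (-0.40, adjusted p = 0.0893).

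Pdk4 (chr6:5483351-5496309, minus strand) had counts of 1795, 1844, 2072, 3367 and 557.6 in saline-treated replicates 1 to 5. With LNA29 the lowest, median and highest were 1101, 2598 and 5785. The groups overlap, with 3 of the 8 LNA29-treated livers above all saline-treated ones. The log2 fold change of 0.75 (SE 0.432) did not pass (limma adjusted p = 0.506; exact permutation p = 0.174) and was 0.35 without saline replicate 5. That floxed mouse had the lowest Pdk4 and the highest Dbp of its group. The means of Pdk4 were lower in floxed than in WT mice under both treatments, 1201 against 2411 with saline and 2417 against 4001 with LNA29. The part of the time of day in this was not tested. The highest value was 5.26 times the lowest with LNA29 and 6.04 times with saline, against 1.19 and 1.23 times for Ldhd. Pdk3 (chrX:93764607-93832201, minus strand) was at 30.2 ± 15.4 with saline and 42.04 ± 19.8 with LNA29 and did not pass (limma adjusted p = 0.650), and its log2 fold change of 0.49 ran from 0.19 to 0.72 with 1 library left out.

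Neither phosphatase passed. Pdp2 (chr8:104591451-104599026, plus strand), with its 2 seed matches, was at 1181 ± 284 with saline (n = 5) and 1077 ± 211 with LNA29 (n = 8), a log2 fold change of -0.12 (SE 0.167, 95% CI -0.48 to 0.23; limma adjusted p = 0.817). Pdp1 (chr4:11958184-11966452, minus strand), the calcium-stimulated phosphatase, was at 101 ± 24.1 and 115 ± 17.1 (log2 fold change 0.21, SE 0.167; limma adjusted p = 0.652). With 1 library left out at a time the log2 fold change of Pdp2 ran from -0.25 (without saline replicate 2) to -0.02 (without saline replicate 4), and that of Pdp1 from 0.07 (without saline replicate 1) to 0.31 (without saline replicate 2). For scale, 2.64% of 13477 tested genes with a 3′ UTR were raised past the criteria by LNA29, against 6.59% of 2200 with the 7-base match and 14% of 473 with the 8-base match. Pdp2 was not among the raised genes.

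**Figure D1:**
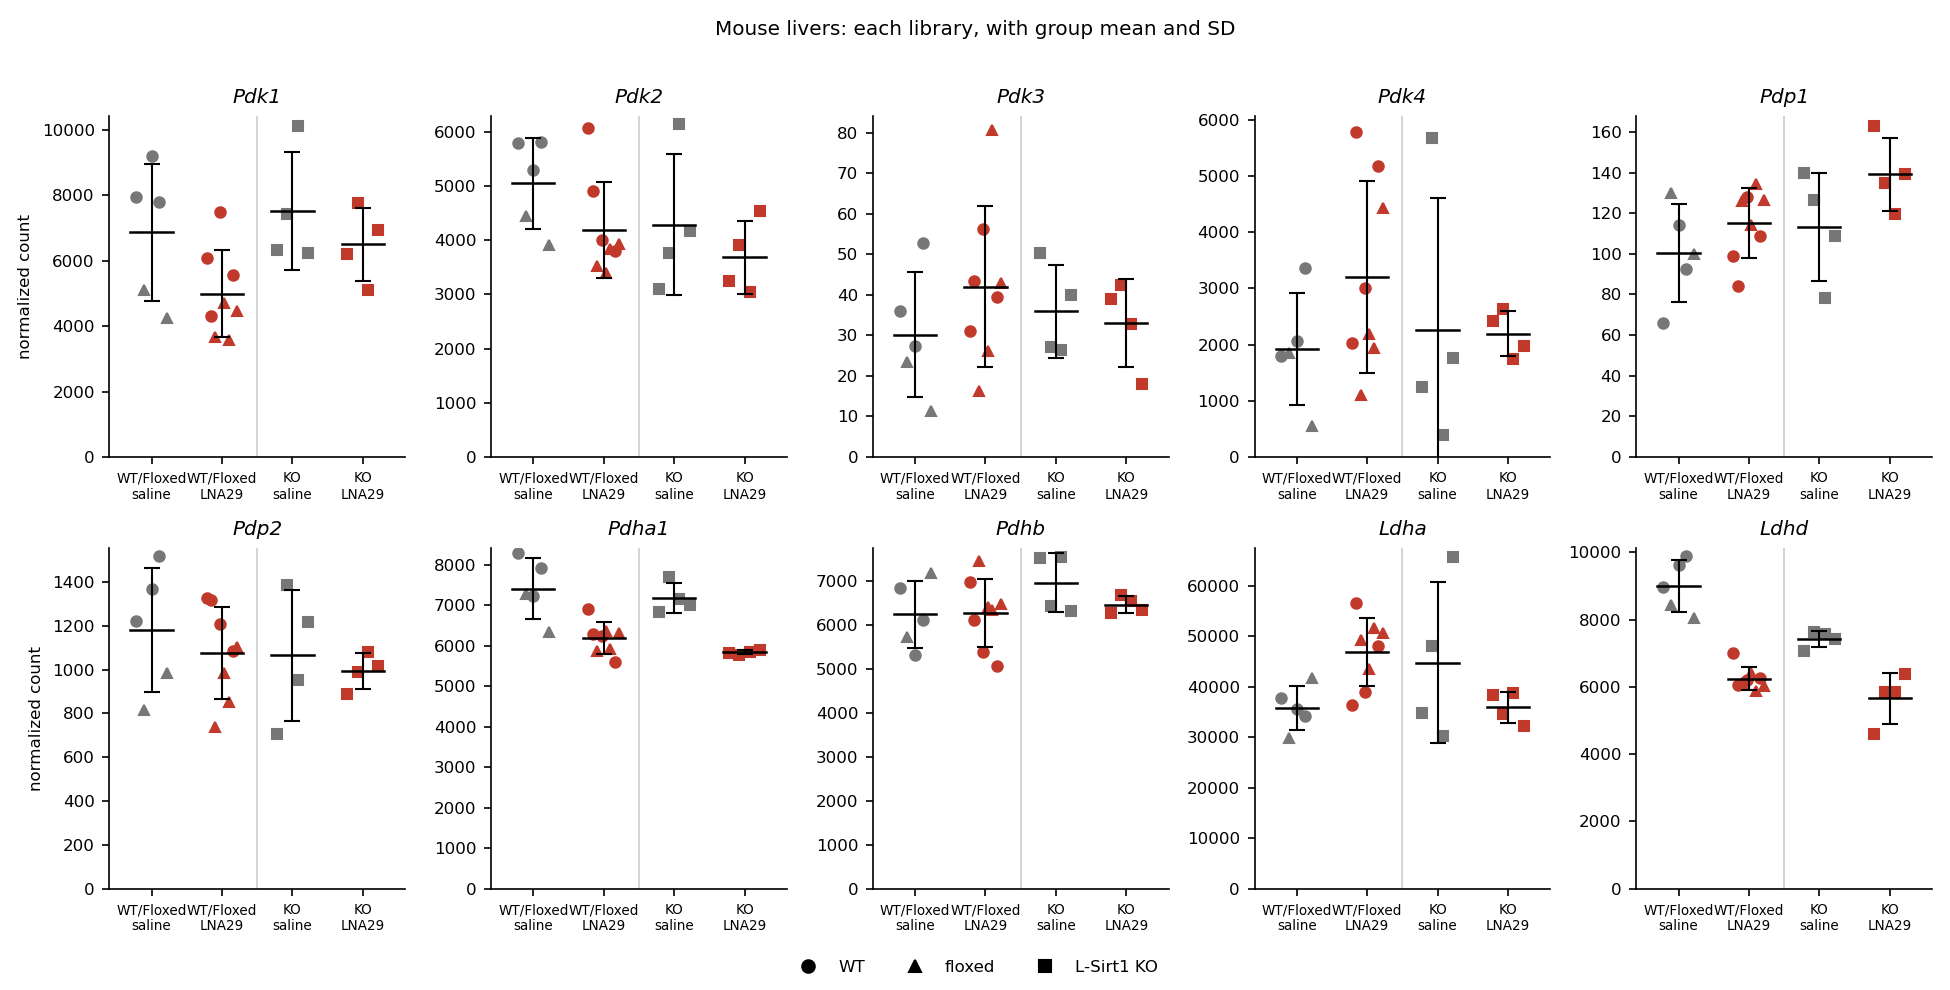
Normalized counts (vertical axes from 0) of the 10 genes in each mouse liver, with the group mean (black line) and SD (bars; that of Pdk4 in saline-treated KO mice runs below 0) and symbols for WT, floxed and L-Sirt1 KO mice. Ldhd shows no overlap between saline and LNA29 in either genotype, and Pdk4 spreads from 389.3 to 5677 in saline-treated KO mice alone.

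In the mice labelled L-Sirt1 KO, Ldhd and Pdha1 fell with LNA29 and no member rose. These 2 calls among 10 genes stand beside 297 of 15885 (1.87%), of which 189 were higher and 108 lower. Ldhd had counts of 7084, 7639, 7564 and 7433 with saline and of 4593, 5860, 5837 and 6382 with LNA29, so the groups do not overlap. It fell to 0.758 times the saline level (95% CI 0.645 to 0.891; limma adjusted p = 0.189; exact permutation p = 0.0286, the smallest that 4 against 4 allows). Pdha1 had counts of 6836, 7704, 7157 and 7016 with saline and of 5832, 5783, 5847 and 5897 with LNA29. The 4 LNA29 values lie within 1.02 times of each other, and all are below the saline values. It fell to 0.814 times the saline level (95% CI 0.731 to 0.908; limma adjusted p = 0.148; exact permutation p = 0.0286). Groups that do not overlap were seen for 1104 of the 15885 genes (6.95%).

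Both calls were close to the limit. With the sequencing run as a covariate the log2 fold changes were -0.35 (Ldhd, limma adjusted p = 0.330) and -0.29 (Pdha1, adjusted p = 0.301). Both calls were lost when LNA29 replicates 2, 3 or 4 or saline replicates 2, 3 or 4 were left out, with log2 fold changes from -0.26 to -0.46, and that of Pdha1 also without LNA29 replicate 1 (-0.30, limma adjusted p = 0.208), the library with muscle and fat cell markers. Without saline replicate 3, the library with high Dbp, they were -0.39 (Ldhd, limma adjusted p = 0.279) and -0.30 (Pdha1, adjusted p = 0.225). Without saline replicate 4, the library with fat cell markers, they were -0.40 (Ldhd, limma adjusted p = 0.360) and -0.31 (Pdha1, adjusted p = 0.289).

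The other 8 genes did not pass in these mice. Ldha had counts of 34834, 48099, 30162 and 65679 with saline and of 38291, 34485, 38666 and 32259 with LNA29, and all LNA29 values lie inside the saline range. Its means were 44694 ± 15920 and 35925 ± 3089 (log2 fold change -0.25, SE 0.214; limma adjusted p = 0.704), and the log2 fold change was -0.05 without saline replicate 4 and -0.42 without saline replicate 3. Pdk4 had counts of 1244, 5677, 389.3 and 1763 with saline and of 2422, 2628, 1742 and 1979 with LNA29. All 4 LNA29 values lie inside the saline range (log2 fold change 0.54, SE 0.639; limma adjusted p = 0.792), and without saline replicate 3 the log2 fold change was -0.10. That library had the lowest Pdk4 together with the highest Pdk1 (10113 against 6226 to 7424) and the highest Pdk2 (6145 against 3097 to 4171) of its group, with Arntl, a clock activator, at 382 against 1050 to 1490. The part of the time of day in this was not tested. The remaining log2 fold changes were -0.20 for Pdk1, -0.19 for Pdk2, -0.13 for Pdk3, 0.32 for Pdp1, -0.06 for Pdp2 and -0.10 for Pdhb, with limma adjusted p between 0.596 and 0.933. Without saline replicate 3 they were -0.05 for Pdk1, -0.00 for Pdk2 and 0.15 for Pdp1, and over all libraries left out in turn they ran from -0.29 to -0.05, from -0.33 to -0.00 and from 0.15 to 0.43.

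Whether the response to LNA29 differed between WT/Floxed and KO mice was tested as an interaction over 15601 genes, of which 7 (0.0449%) passed at an adjusted p under 0.2 and 1426 had an unadjusted p under 0.05 in limma. None of the 10 genes passed. Ldha came closest, with a log2 fold change 0.64 higher in WT/Floxed than in KO mice (95% CI 0.16 to 1.12; limma adjusted p = 0.391), and it passed without saline-treated KO replicate 3 (0.80, limma adjusted p = 0.149). Without saline-treated KO replicate 4, which had the highest Ldha of its group, the difference was 0.43 (limma adjusted p = 0.673). For Ldhd the difference was -0.12 (95% CI -0.36 to 0.11) and for Pdha1 0.04 (95% CI -0.17 to 0.25). For Pdk4 the interval ran from -1.47 to 1.88, so that large differences in either direction lie inside it.

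**Figure D2:**
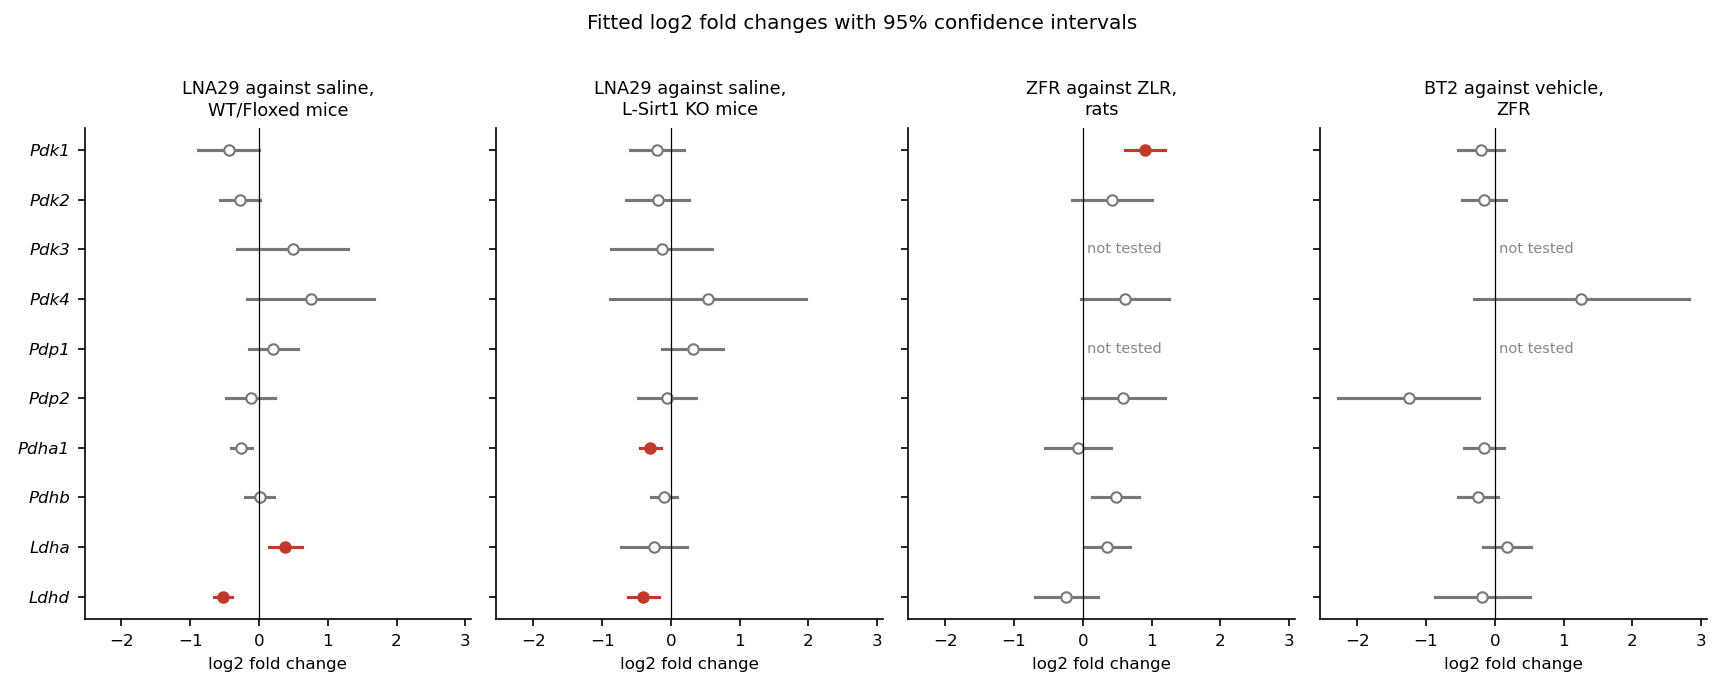
Fitted log2 fold changes (horizontal axes) with 95% confidence intervals for the 10 genes in 4 comparisons, filled red where past the criteria and open grey where not. The intervals of Ldhd lie below 0 in both mouse panels, that of Pdk1 lies above 0 in ZFR against ZLR, and Pdk3 and Pdp1 were too low to test in rats.

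The make-up of the kinase pool is the share of each kinase in the summed kinase counts per kb. In saline-treated WT/Floxed livers it was 55.3% Pdk2, 31.6% ± 3.70 Pdk1, 12.7% ± 4.87 Pdk4 and 0.329% Pdk3 (means, SD, n = 5). With LNA29 it was 50.2% ± 8.09 Pdk2, 25.8% ± 5.24 Pdk1 and 23.5% ± 9.47 Pdk4 (n = 8). The shares of Pdk4 overlap, from 5.87% to 19.0% with saline and from 12.1% to 35.3% with LNA29. In KO mice the Pdk4 share was 15.7% ± 13.4 with saline, from 2.32% to 34.3%, and 17.9% ± 2.64 with LNA29 (n = 4 each). Pdk2 had the highest mean share in all 4 groups. These shares describe mRNA only and were not tested, since they follow from the counts tested above.

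**Figure D3:**
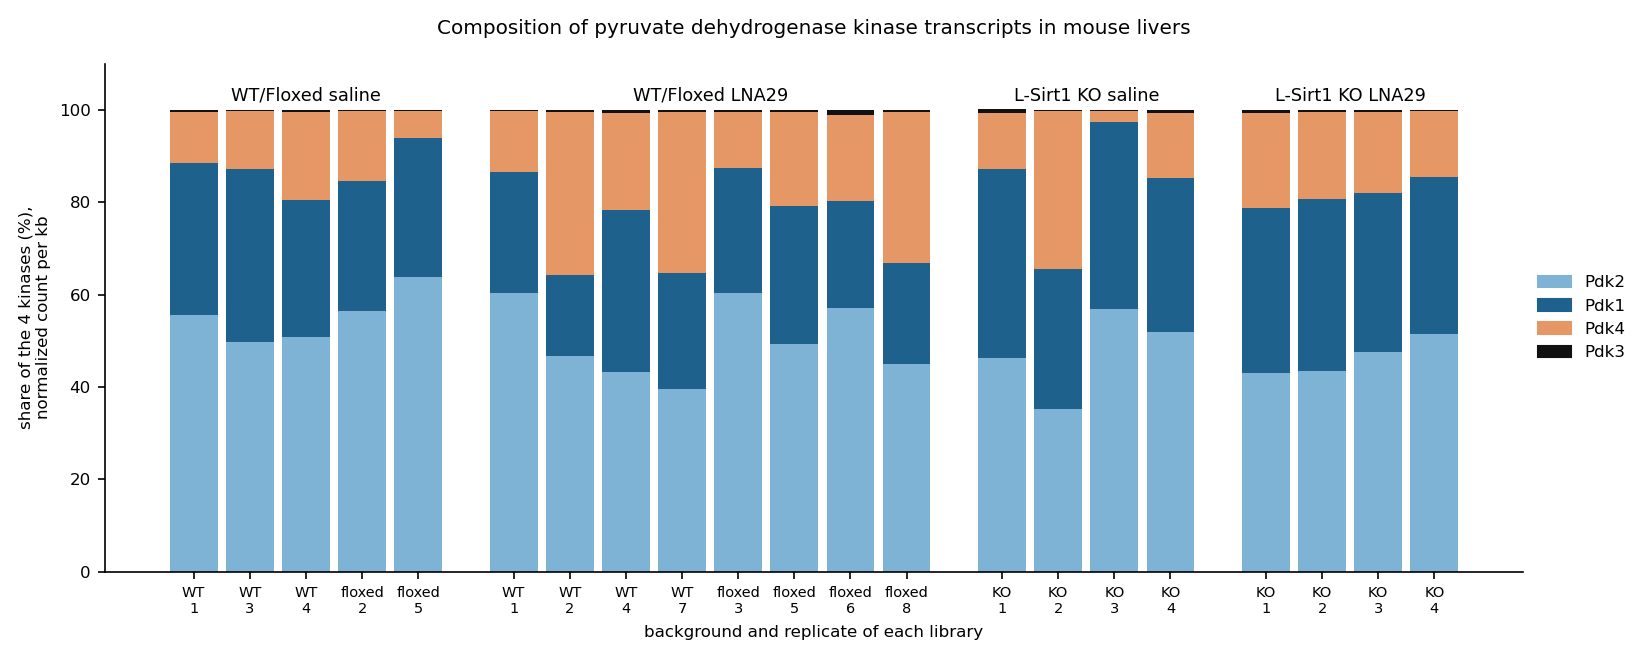
Share of each of the 4 kinases in the summed kinase counts per kb (vertical axis, percent), 1 bar per mouse liver. Pdk2 and Pdk1 fill most of each bar, and the Pdk4 share runs from 2.32% to 35.3% across the 21 livers.

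The other genes around pyruvate were taken as whole lists. In WT/Floxed mice Slc16a1, a transporter of lactate and pyruvate, rose from 5179 ± 286 to 7183 ± 1297 (log2 fold change 0.45, limma adjusted p = 0.0899) and was 1 of 4 tested transporter genes past the criteria, with 0 lower and a list median of -0.05. Of 12 tested genes of the pyruvate carrier and other pyruvate routes, 2 fell and 0 rose (median -0.14). They were Cs, citrate synthase, from 8431 ± 263 to 6843 ± 508 (-0.30, limma adjusted p = 0.0267, groups without overlap), and Gpt2, mitochondrial alanine aminotransferase (-0.55, adjusted p = 0.185). None of the other 4 genes of the complex passed. Dlat, its E2 subunit, had the largest change among them (-0.23, limma adjusted p = 0.225). None of the 5 genes of the glyoxalase route, which makes the D-lactate that Ldhd oxidizes, passed either, and Lactb2 was the farthest from 0 (-0.19, adjusted p = 0.384). Of the cofactor genes for lipoate and thiamine diphosphate 0 of 6 passed (median -0.02), and of the branched-chain complex and its regulators 0 of 5 (median -0.05).

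In KO mice no gene of the transporter, carrier, glyoxalase or complex lists passed. Cs was at 8328 ± 1005 with saline and 7107 ± 616 with LNA29, and Slc16a1 at 5581 ± 2058 and 5830 ± 1014. Dlat again had the largest change within the complex list (-0.30, limma adjusted p = 0.398). Dbt, the E2 subunit of the branched-chain complex, was 1 of 5 genes of that complex and its regulators past the criteria (0.52, limma adjusted p = 0.166). The list medians were 0.05 for the complex, -0.04 for the other pyruvate routes, 0.08 for the transporters, -0.05 for the glyoxalase route and 0.25 for the branched-chain complex.

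The genes that commonly accompany Pdk4 were read the same way. Of 9 known regulators of Pdk4, 0 passed in either genotype. The farthest from 0 were the coactivator Ppargc1a in WT/Floxed mice (-0.33, limma adjusted p = 0.578) and the nuclear receptor Esrra in KO mice (-0.33, adjusted p = 0.385). Of 10 fasting and PPARα response genes, 9 had log2 fold changes above 0 in WT/Floxed mice (median 0.25) and 1 passed, the fasting hormone Fgf21 (1.90, limma adjusted p = 0.171), at 87.5 ± 73.5 with saline and 307 ± 238 with LNA29. In KO mice 0 of the 10 were above 0 (median -0.89) and Cyp4a14, a fatty acid omega-hydroxylase, fell from 72172 ± 42416 to 21757 ± 1962 (-1.53, limma adjusted p = 0.158). No gene of the list passed in the test of the difference between genotypes. Of 7 hypoxia response genes, Ndrg1 rose in WT/Floxed mice (1.05, limma adjusted p = 0.0428), and in KO mice Bnip3 (-0.62) and Ankrd37 (-1.27) fell and Slc2a1 (0.58) rose. In KO mice, 0 of 9 clock genes of the day-to-evening phase were above 0 (median -0.83) and 5 of 5 of the night-to-morning phase were (median 0.89), with none past the criteria. Saline replicate 3 stood apart in these genes too, with Per3 at 1152 against 96.9 to 148 in the other 3 saline-treated KO livers, beside its Dbp and Arntl given above. In WT/Floxed mice 2 of 9 (median -0.24) and 5 of 5 (median 0.23) were above 0, and Nfil3 rose (0.36, limma adjusted p = 0.124). The part of the clock in the results was not tested.

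Markers of liver cell types were read beside these results. In WT/Floxed mice 1 of 7 tested hepatocyte markers rose with LNA29, Apoa1 (0.51, limma adjusted p = 0.0312), and 1 of 8 endothelial markers fell, Lyve1 (-0.51, adjusted p = 0.165). None of 8 macrophage markers passed (median -0.43), and they summed to 23521 ± 5009 with saline and 22458 ± 14931 with LNA29, led by Lyz2. LNA29 replicate 4 had a sum of 55758 against 9973 to 25785 in the other 7, whereas the 5 saline-treated livers ranged from 16750 to 28801. Without that library Ldhd (-0.52, limma adjusted p = 0.00201) and Ldha (0.42, adjusted p = 0.0789) were still past the criteria. In KO mice 2 of 8 macrophage markers fell, Vsig4 (-0.54, limma adjusted p = 0.0891) and Clec4f (-0.29, adjusted p = 0.189), and 2 were above 0 (median -0.34). Their sum was 21977 ± 1582 with saline and 19525 ± 2786 with LNA29. Of 8 endothelial markers 1 fell, Lyve1 (-1.17, limma adjusted p = 0.115), and 3 were above 0 (median -0.06). The endothelial sum was 16189 ± 714 with saline and 15104 ± 643 with LNA29. Hepatocyte markers summed to 6430037 ± 1090913 and 6929581 ± 559058 in WT/Floxed mice and to 5965936 ± 571313 and 6664294 ± 445286 in KO mice, with saline and LNA29. The part of cell make-up in the results was not tested.

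Across the 13 WT/Floxed livers, the 3 genes with the highest Pearson correlation to each of Pdk4, Ldhd and Pdk1 were picked from 12875 genes. These were Enc1 (r = 0.910), Gm6377 (0.905) and Gm4952 (0.887) for Pdk4, and Aldh5a1 (0.961), Akr1d1 (0.912) and Dennd2d (0.907) for Ldhd. For Pdk1 they were Pitrm1 (0.953), Met (0.945) and Suclg2 (0.941). The livers share treatments and, in part, background and run, so the values describe these livers only.

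In rats, Pdk1 was higher in obese ZFR than in lean ZLR, and the calls on Pdk4 and Pdhb depended on the settings. Pdk1 was the 1 called of the 8 members that could be tested, beside 367 of 8633 genes (4.25%) at a limma adjusted p under 0.05, with 155 higher and 212 lower. Pdk3 and Pdp1 were below a mean of 10 normalized counts and were not in the fit. Pdk3 was at 1.0, 1.2, 0 and 0 in ZLR and at 1.9, 3.5, 4.2 and 3.1 in ZFR, on at most 3 reads in the 3 shallower ZFR libraries, and Pdp1 ranged from 0 to 10.4 and from 4.1 to 11.8. Pdk1 had counts of 90, 71.2, 73.7 and 73.1 in ZLR and of 147.3, 135.3, 148.3 and 149.3 in ZFR. The groups do not overlap, which held for 1250 of the 8633 genes (14.5%). Pdk1 rose 1.88-fold (95% CI 1.54 to 2.3; limma adjusted p = 0.00422; exact permutation p = 0.0286, the smallest that 4 against 4 allows). The median log2 fold change over all tested genes was 0.0698 against 0.91 for Pdk1.

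Depth differed by much within these groups. ZLR replicates 3 and 4 held 0.188 and 0.189 M reads, and their Pdk1 values rest on 7 estimated reads each, against 2349 and 1648 in ZLR replicates 1 and 2 and 71 to 4576 in ZFR. Pdk1 was higher in ZFR within each sequencing run, with 147.3 and 135.3 against 90 and 71.2 in one and 148.3 and 149.3 against 73.7 and 73.1 in the other. Without the libraries under 1 M reads its log2 fold change was 0.84 (limma adjusted p = 0.0222).

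Pdk4 had counts of 71.2, 55.4, 147.5 and 83.5 in ZLR and of 175.8, 109.4, 112.8 and 124.4 in ZFR. The third ZLR value, the only one above any ZFR value, rests on 14 reads. The log2 fold change of 0.61 (SE 0.287) did not pass (limma adjusted p = 0.326). Without the libraries under 1 M reads it was 1.08 (limma adjusted p = 0.0384), and with precision weights from the estimated reads 1.02 (adjusted p = 0.00677). Pdhb had counts of 378.3, 273.2, 257.0 and 232.9 in ZLR and of 423.9, 362.2, 400.8 and 379.9 in ZFR, with 3 of 4 ZFR values above all of ZLR (0.48, SE 0.151; limma adjusted p = 0.129). It passed without ZLR replicate 1 (0.62, limma adjusted p = 0.019) and under the mouse criteria.

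The other members did not pass. Ldha was at 3061 ± 465 in ZLR and 3913 ± 670 in ZFR (log2 fold change 0.35, limma adjusted p = 0.284). Pdp2 was at 24.7 ± 4.32 and 38.6 ± 12.2 (0.59, adjusted p = 0.309), and Pdk2 at 160 ± 59.8 and 203 ± 6.56 (0.42, adjusted p = 0.450). The log2 fold change of Pdk2 was 0.15 without ZLR replicate 3, whose value of 84.3 rests on 8 reads, and 0.63 without ZLR replicate 1, and the Pdp2 values of ZLR replicates 3 and 4 rest on 2 reads each. Pdha1 (-0.07, limma adjusted p = 0.886) and Ldhd (-0.24, adjusted p = 0.581) had values below 0. Ldhd was at 58.2 ± 7.99 in ZLR and 49.7 ± 10.6 in ZFR (95% CI of the log2 fold change -0.70 to 0.22), on as few as 6 reads in each of 2 ZLR libraries.

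**Figure D4:**
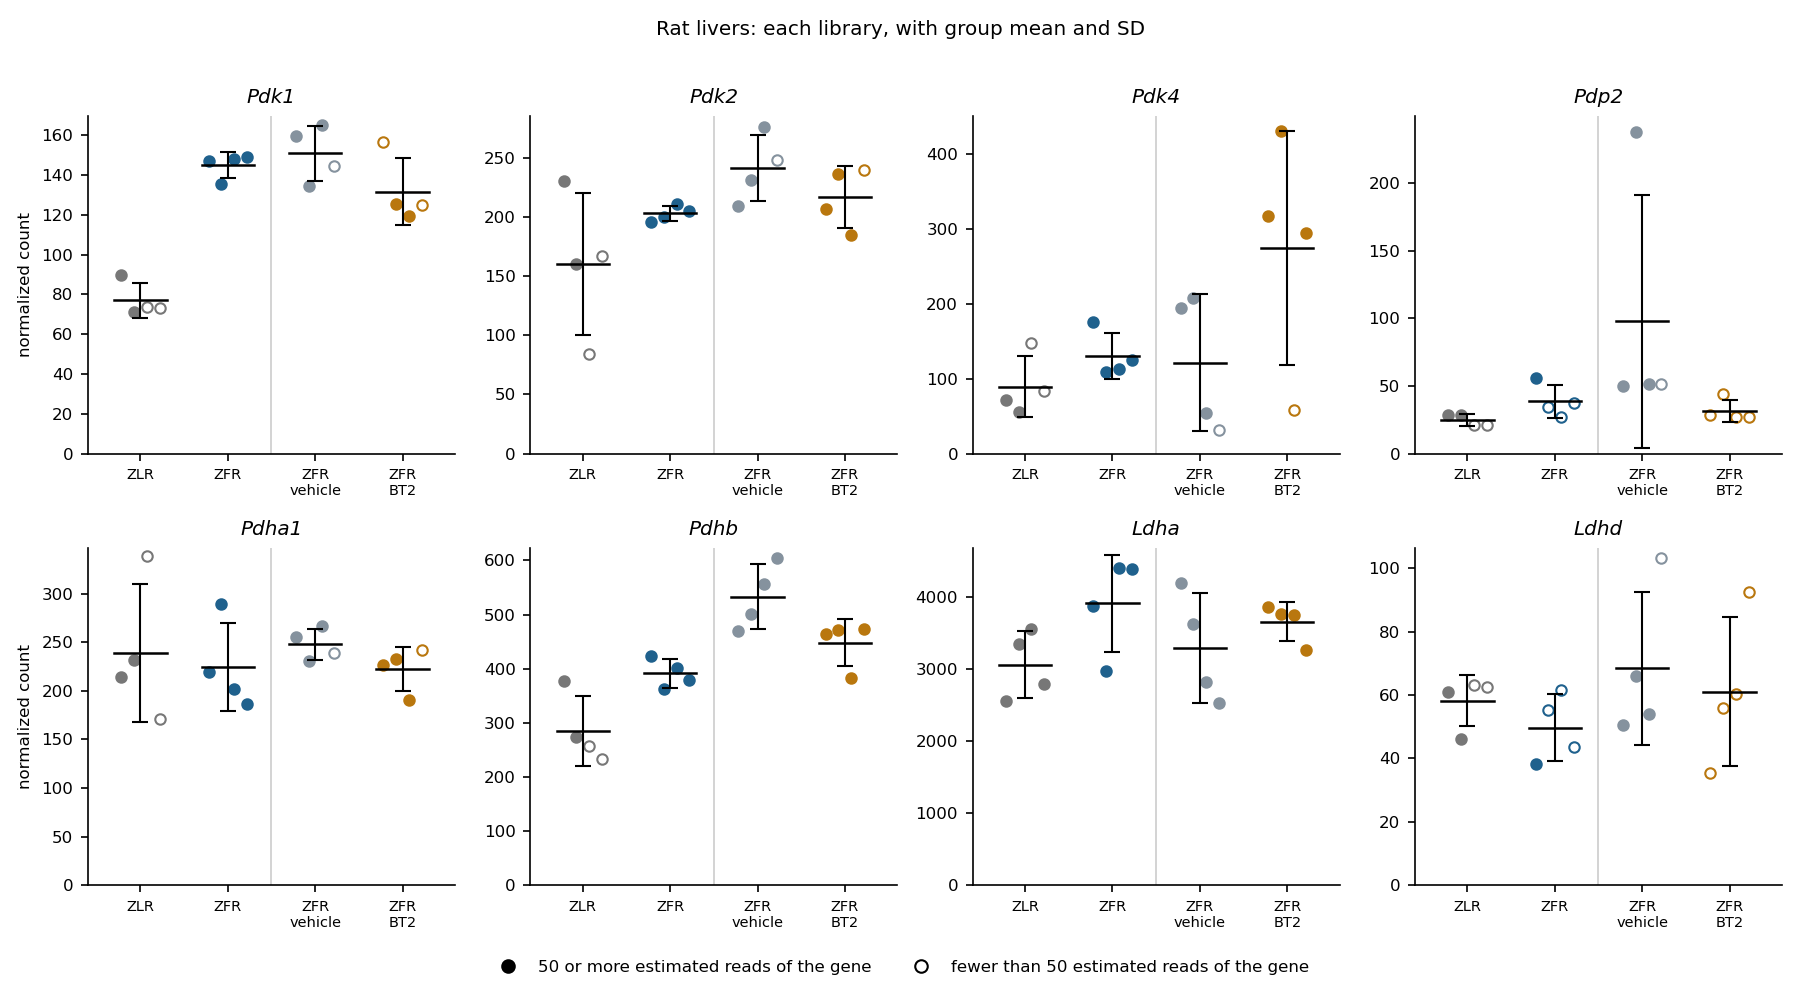
Normalized counts (vertical axes from 0) of 8 members in each rat liver, with group mean (black line) and SD (bars), and open circles where the value rests on fewer than 50 estimated reads. Pdk1 lies between 71.2 and 90 in ZLR and between 135.3 and 149.3 in ZFR, and Pdp2 in 1 vehicle library stands at 238.2.

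Around Pdk1, the lists of pyruvate genes moved as follows in ZFR. Dlat, the E2 subunit, rose from 51.5 ± 6.83 to 124 ± 11.3 (log2 fold change 1.26, limma adjusted p = 0.00199) and was 1 of 4 genes of the rest of the complex past the limit, with a list median of 0.29. In the list of other pyruvate routes, 2 of 12 tested genes rose and 0 fell (median 0.23). They were the malic enzyme Me1, from 78.0 ± 26.6 to 266 ± 37.1 (1.81, limma adjusted p = 0.00202), and the liver pyruvate kinase Pklr, from 728 ± 136 to 1624 ± 399 (1.14, adjusted p = 0.00692). Hagh, which makes D-lactate in the glyoxalase route, was 1 of 5 genes of its list past the limit and fell (-0.62, limma adjusted p = 0.0397). No transporter, cofactor or branched-chain gene passed. None of the 7 tested regulators of Pdk4 passed, with Foxo3 the farthest from 0 (-1.67, adjusted p = 0.121), and 1 of 7 fasting genes did, Vnn1 (1.40, adjusted p = 0.0496). Of 7 hypoxia response genes 3 could be tested, and 0 passed, with 2 above 0 (median 1.27).

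Clock genes differed between the same rats. Dbp was at 4.55, 28.0, 7.37 and 0 in ZLR and at 109, 265, 272 and 181 in ZFR (limma adjusted p = 0.00922), and Per2, Per3 and Tef of the same phase were higher too, so that 4 of 8 tested genes rose. Arntl was at 60.8, 43.4, 63.2 and 83.5 in ZLR and at 24.5, 8.24, 4.18 and 12.4 in ZFR, and Arntl and Npas2 fell among 5 genes of the opposite phase. The hour at which livers were taken is not given in the sources used here, and the part of the clock in the values of Pdk1, Dlat, Me1 and Pklr was not tested. Among the cell type markers, 2 of 7 tested hepatocyte genes were lower in ZFR, Cps1 (-0.58) and Ttr (-0.43), and 0 were above 0 (median -0.22). Of 7 tested endothelial genes 1 was higher, Stab2 (1.16), and 3 were above 0 (median -0.07). The 7 hepatocyte markers summed to 258399 ± 33288 in ZLR and 226671 ± 39528 in ZFR, and the 7 endothelial markers found in rats to 512 ± 63.3 and 507 ± 92.6. The 3 red blood cell markers found in rats, led by Hbb, summed to 304 ± 134 in ZLR and 687 ± 255 in ZFR (Hbb 1.24, limma adjusted p = 0.0949). The part of cell make-up was not tested.

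**Figure D5:**
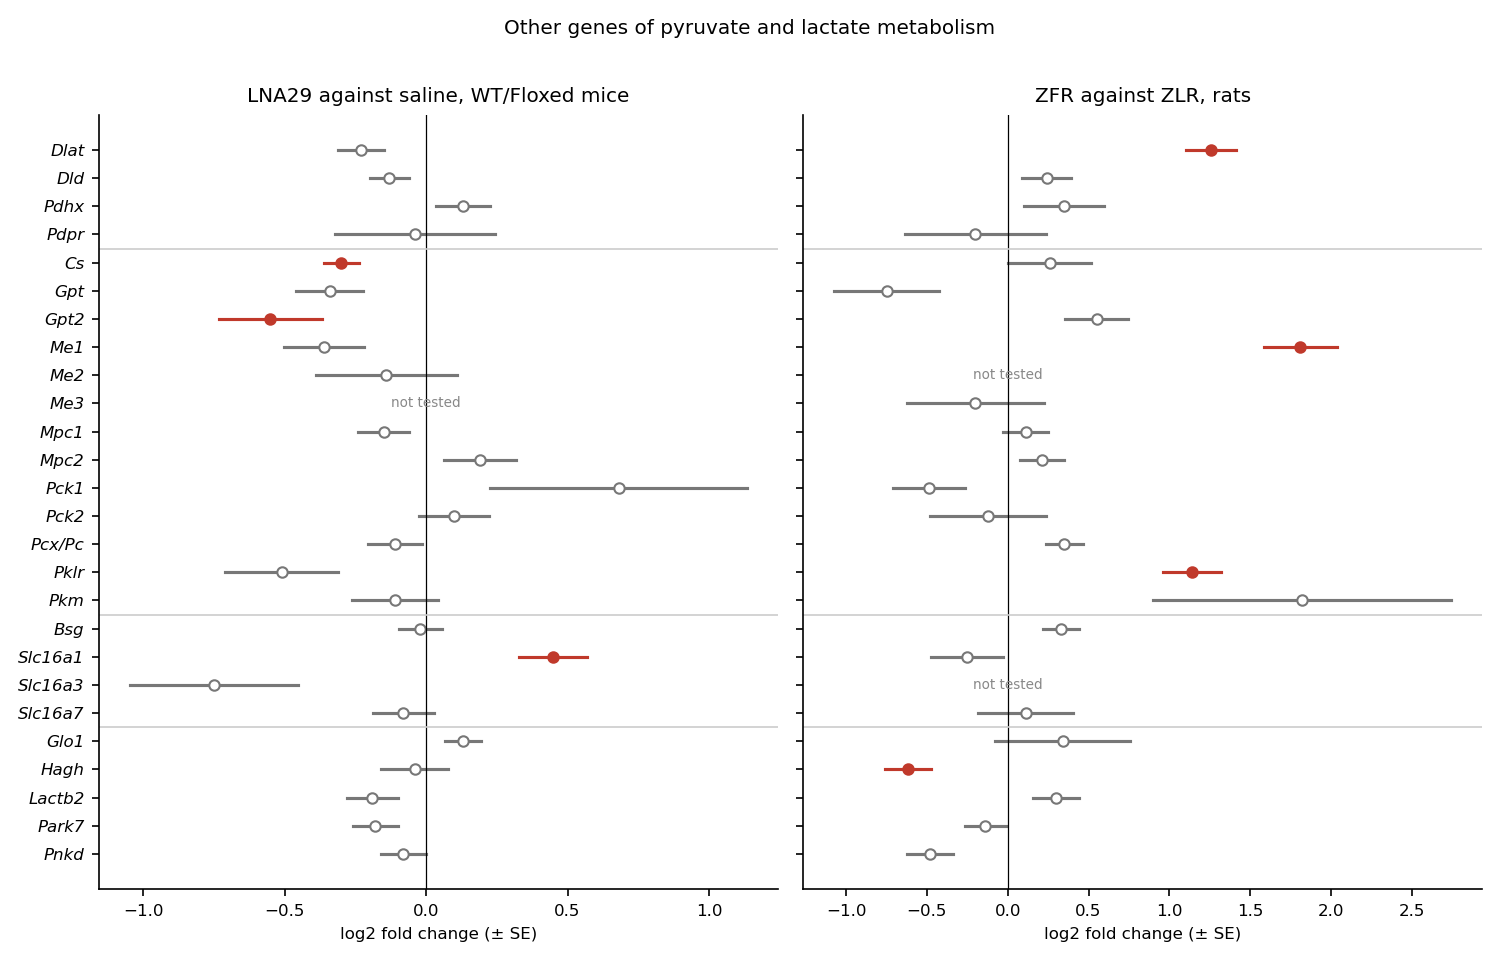
Log2 fold changes with SE (horizontal axes) of the listed genes around pyruvate and lactate, for LNA29 against saline in WT/Floxed mice and for ZFR against ZLR. Slc16a1 lies above 0 and Cs and Gpt2 below 0 in mice, and Dlat, Me1 and Pklr lie above 1 in ZFR.

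BT2 acts on a kinase of the same family as the Pdk enzymes, and its comparison asks how ZFR livers respond to it. None of the 8 testable members passed, nor did any of the 8405 tested genes (0%; 332 had an unadjusted p under 0.05 in limma). Pdp2 was the only one of the 8 whose groups did not overlap, which held for 249 genes (2.96%). It had counts of 50, 238.2, 51.3 and 51.6 with vehicle and of 28.5, 44.1, 26.8 and 27.2 with BT2. The BT2 values rest on 5 to 33 reads, and 1 vehicle library stands far above the others. The log2 fold change was -1.25 (SE 0.463; limma adjusted p = 0.898; exact permutation p = 0.0286) and -0.70 without vehicle replicate 2.

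Pdk4 had counts of 193.7, 207.1, 54.1 and 31.0 with vehicle and of 316.7, 429.8, 57.6 and 293.7 with BT2. The groups overlap, with 3 of the 4 BT2 values above all vehicle values, and the lowest vehicle value rests on 3 reads. The log2 fold change of 1.26 (SE 0.709; limma adjusted p = 0.898) was 0.28 without the libraries under 1 M reads. Pdk1, which was higher in ZFR than in ZLR, was at 150.9 ± 14.03 with vehicle and 131.6 ± 16.92 with BT2 (-0.20, 95% CI -0.53 to 0.14). Pdhb was at 533 ± 59.8 and 448 ± 43.2 (-0.25, 95% CI -0.53 to 0.04). For Pdk2, Pdha1, Ldha and Ldhd the log2 fold changes were -0.15, -0.16, 0.18 and -0.18, with limma adjusted p of 0.898 to 0.935. With 1 library left out at a time those of Pdk2 ran from -0.22 to -0.08, of Pdha1 from -0.20 to -0.08, of Ldha from 0.06 to 0.30, of Ldhd from -0.41 to 0.05 and of Pdk4 from 0.75 to 1.90.

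No pathway list had a member past the limit with BT2. The gene farthest from 0 was Dlat (-0.77, from 138 ± 29.3 to 82.9 ± 27.2) within the complex, Pklr (-0.71, from 1885 ± 164 to 1173 ± 261) within the other pyruvate routes, Angptl4 (0.89) within the fasting genes and Foxo3 (1.67) within the regulators of Pdk4, each with a limma adjusted p of 0.898. Beside them, 0 of 8 tested clock genes of the day-to-evening phase were above 0 (median -0.72) and 5 of 5 of the opposite phase were (median 0.54). The part of the time of day was not tested.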

How the data were processed

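RNA-seq was made from polyA-selected liver RNA (single-end reads of 100 bases). The authors deposited a signal, normalized counts per gene: reads aligned with STAR (mm10 or rn6) and quantified per gene with Salmon were divided by DESeq2 normalization factors, each table on its own. Whole reads could not be recovered (70.2% to 76.4% of low values in a mouse library were whole within 0.02 reads, and 76% to 90.6% in a rat library), so no count model was run. Reads per library were estimated by taking the most frequent value above 0 as 1 read. These depths cover counting error only. No column was left unmatched (0). Entries without a name (381 in mice, 201 in rats, at most 0.0461% of counts) or with a repeated name (130 and 4523, at most 2.17%) were left out. The closest libraries of a table correlated at r = 0.9856, so none was a copy. 1 floxed saline mouse had been excluded by the authors.

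The tests used limma 3.58.1 (lmFit, eBayes with a trend) in R 4.3.3 on log2(normalized count + 1), over genes with a mean of at least 10, with Benjamini-Hochberg adjustment. Fold changes are on that scale and understate low genes. Groups were WT/Floxed, KO and rat groups as labelled. Mouse calls followed the study's criteria, and rat calls an adjusted p under 0.05. Single genes also had a two-sided exact permutation test (SciPy 1.17.1). The code was tested on simulated data with 200 changed genes. The 10 genes and all lists were chosen with earlier results of these data known. All 10 are named in each comparison, and from a list the genes past the criteria or the one farthest from 0. Sequences came from RefSeq and GRCm38. The alternatives tried were TMM scaling, a pseudocount of 10, no minimum mean, quality or precision weights, run or background as covariate, the replicate number as a block, other thresholds and libraries left out. WT or floxed mice alone were added after seeing the data.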

Additional observations from a re-analysis of the deposited data

Results flagged for a closer look

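Of 72 groups of 4, 5 or 8 libraries, 7 held 1 library far from the others by Dixon's test at its 95% limit, where chance gives about 1 in 20. All 7 were rat groups of 4. Pdk1 was 90 in ZLR replicate 1 against 71.2 to 73.7 in the others, 135 in ZFR replicate 2 against 147 to 149, and 157 in BT2 replicate 1 against 119 to 125. Pdp2 was 238 in vehicle replicate 2 against 50 to 51.6, and 44.1 in BT2 replicate 2 against 26.8 to 28.5. Ldhd was 46.3 in ZLR replicate 2 against 60.8 to 63.1. Pdhb was 384 in BT2 replicate 3 against 464 to 473.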

How the results depend on the processing

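The count of members past the criteria in WT/Floxed mice was 2 with 688 genes in all. It was 1 without a minimum mean (396 genes), with the replicate block (56), in WT mice only (88), in floxed mice only (842) and at an adjusted p under 0.05 (206), and Ldhd was that gene each time. It was 5 with quality weights (1308), 3 with the background covariate (988) and 1 to 4 with a library left out, with Ldhd past the criteria in all 13 such fits. In KO mice it was 2 (297 genes) and 0 without a minimum mean (160), with the run covariate (103), with the replicate block (145) and at an adjusted p under 0.05 (37), and 0 to 2 with a library left out; quality weights gave 804 genes. In ZFR against ZLR it was 1 (367 genes), 3 with quality weights (1169), 2 with precision weights (1037), without libraries under 1 M reads and under the mouse criteria (707), and 1 to 2 with a library left out, always with Pdk1; no minimum mean gave 241 genes and the block 221. It was 0 with BT2 throughout. For the difference between genotypes it was 0, 1 with quality weights (Ldha; 1220 genes against 7) and 0 to 1 with a library left out (Ldha without saline-treated KO replicate 3, 233 genes). The replicate block paired livers that share only a number: deviations of same-numbered livers correlated at -0.28 to 0.24 in WT/Floxed, -0.08 to 0.19 in KO, -0.03 to 0.03 in ZFR and ZLR and -0.02 to 0.15 in BT2 and vehicle, and a liver correlated best with its own number in 0 of 5, 1 of 4, 1 of 4 and 2 of 4 pairs. With the block Ldha in WT/Floxed mice had a log2 fold change of 0.32 (limma adjusted p = 0.763) and Ldhd of -0.50 (adjusted p = 0.184). The log2 fold change changed sign, around values that had not passed, for Pdhb in WT/Floxed mice (-0.01 with quality weights, -0.01 with the background covariate, -0.05 in WT mice only), Pdp2 (0.02 in floxed mice only; in KO mice 0.02 with the run covariate), Pdha1 in ZFR (0.03) and Ldhd with BT2 (0.04) without libraries under 1 M reads, and the genotype differences of Pdp1 (0.04) and Pdha1 (-0.02) with quality weights. With a library left out, signs changed for Pdhb in WT/Floxed (-0.05 to 0.06), Pdk3 (-0.27 to 0.13), Pdk4 (-0.1 to 1.19) and Pdp2 (-0.24 to 0.08) in KO mice, Pdha1 in ZFR (-0.21 to 0.11), Ldhd with BT2 (-0.41 to 0.05), and the genotype differences of Pdk2 (-0.28 to 0.05), Pdk4 (-0.44 to 0.85), Pdp1 (-0.25 to 0.06), Pdp2 (-0.21 to 0.11) and Pdha1 (-0.01 to 0.08). TMM scaling moved the median of all genes by at most 0.0248 in size. The causes were not tested.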
